A study of Mus musculus with 12 samples.

Results

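The sterol-sensing genes are the 8 genes that hold, release and cut the SREBP transcription factors or control lipoprotein receptors at the protein level, namely Srebf1, Srebf2, Scap, Insig1, Insig2, Mbtps1, Mbtps2 and Mylip. They were taken by gene symbol from a table of 17210 genes, whatever their values. RNA was sequenced in 12 libraries of G1E-ER4 cells, a mouse erythroid progenitor line that lacks its own GATA1 and carries in its place a GATA1 fused to an estrogen receptor domain that β-estradiol (EST) switches on. All cells of all 4 groups therefore carried the fusion, and all were transduced for 24 h with a retrovirus. The Vector group received an empty vector and no EST. The SREBP2 group received the vector with active SREBP2, residues 1 to 468, and no EST. The Vector+EST and SREBP2+EST groups received the same viruses and EST for 6 h. The paper's methods give vehicle for the cells without EST. The dose of EST was 500 nM by the samples' own protocol, while the design text gives 200 nM. Each group held 3 libraries, and the labels give C57BL/6J as the strain. The medium held fetal bovine serum, a source of lipoprotein cholesterol, in all groups. The labels do not say whether the libraries came from separate cultures, so p-values measure the spread between these libraries, which may be technical. The study asked how GATA1 and SREBP2 act on each other in these cells.

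SREBP2, the product of Srebf2, is made as a membrane protein of the endoplasmic reticulum and is bound there by the escort protein SCAP. When membrane sterol is high, SCAP is held back by INSIG1 or INSIG2. When it is low, SCAP carries SREBP in COPII-coated vesicles to the Golgi, where the site-1 and site-2 proteases, encoded by Mbtps1 and Mbtps2, cut the transcription factor free. The freed fragment enters the nucleus and turns on genes of cholesterol synthesis and uptake, Insig1 among them. Mylip encodes IDOL, a ubiquitin ligase that marks lipoprotein receptors for degradation and is known as a target of the oxysterol receptors LXR. The introduced fragment needs neither SCAP nor the proteases.

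The cell type label of the samples reads embryonic stem cells, from which the parent line was once derived, while the markers measured were those of erythroid cells. All 12 erythroid marker genes checked were above the floor of 3 counts in every group, and their summed level ran from 6683 to 9356 CPM (counts scaled to a common library size, with TMM factors between libraries). Of 6 stem cell markers, 4 were in the table, and their sum stayed between 0.0529 and 0.650 CPM. Library totals were nearly level, at 18700959 to 19152281 counts. Library 1 of the SREBP2 group and library 1 of the SREBP2+EST group stood apart from the rest of their own groups. Their chi-square per gene against the other libraries of the group was 6.19 to 10.6, and 1.81 to 3.32 for all other pairs. Libraries are numbered as in the headers of the counts, and these numbers differ from the replicates of the titles. Traces of fibroblast markers (7 genes) summed to 19.2 to 19.9 CPM in Vector, 4.08 to 5.42 in SREBP2, 4.70 to 36.4 in Vector+EST and 18.6 to 35.2 in SREBP2+EST, and megakaryocyte markers (3 of 4 in the table) to 35.2 to 39.5, 45.4 to 60.1, 11.0 to 11.8 and 46.0 to 57.2 CPM. Neural markers (6 genes) summed to 9.72 to 11.5 CPM in Vector and 2.02 to 4.55 CPM over the other groups, and lymphoid markers (3 genes) to 0.102 to 0.153 and 0.704 to 1.41 CPM, so both set Vector apart from the rest, as Insig2, Mbtps1 and Scap did. Their part in the results below was not tested.

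The windows upstream of Insig2 are shown first because Insig2 changed most among the members whose reads do not include an introduced fragment. That of Insig1 is shown because almost no reads were assigned to it. Those of Srebf2, Srebf1 and Mylip are shown because these genes were higher in cells with introduced SREBP2. The second window of Srebf1 and the last of Insig2, which hold no marked letters, are left out. Each runs from 250 bases before to 30 bases after a RefSeq start site (GRCm38.p6, the build named in the submitters' processing notes), 5′ to 3′ on the strand of the gene. Capitals mark CCAAT, the letters of the factor NF-Y, or a GATA form, on either strand:
Insig2, first window, chr1:121332560-121332839, minus strand: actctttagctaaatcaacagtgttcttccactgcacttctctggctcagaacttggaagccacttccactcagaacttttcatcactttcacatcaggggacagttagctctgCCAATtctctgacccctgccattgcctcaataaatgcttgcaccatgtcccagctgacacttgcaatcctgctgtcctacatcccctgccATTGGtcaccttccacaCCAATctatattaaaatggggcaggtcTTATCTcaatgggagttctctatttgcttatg
Insig2, second window, chr1:121327995-121328274, minus strand: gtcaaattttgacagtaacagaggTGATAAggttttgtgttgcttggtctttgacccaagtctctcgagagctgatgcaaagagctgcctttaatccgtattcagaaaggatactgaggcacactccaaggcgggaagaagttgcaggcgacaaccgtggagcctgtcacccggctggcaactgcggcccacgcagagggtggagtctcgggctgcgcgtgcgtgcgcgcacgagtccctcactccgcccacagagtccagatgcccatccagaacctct
Insig1, chr5:28071162-28071441, plus strand: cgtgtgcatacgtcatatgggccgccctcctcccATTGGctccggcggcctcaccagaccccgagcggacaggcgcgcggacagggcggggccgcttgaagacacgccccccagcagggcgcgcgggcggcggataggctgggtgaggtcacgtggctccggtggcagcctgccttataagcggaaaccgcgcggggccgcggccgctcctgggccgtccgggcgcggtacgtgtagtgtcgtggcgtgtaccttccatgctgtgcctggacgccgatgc
Srebf2, chr15:82147019-82147298, plus strand: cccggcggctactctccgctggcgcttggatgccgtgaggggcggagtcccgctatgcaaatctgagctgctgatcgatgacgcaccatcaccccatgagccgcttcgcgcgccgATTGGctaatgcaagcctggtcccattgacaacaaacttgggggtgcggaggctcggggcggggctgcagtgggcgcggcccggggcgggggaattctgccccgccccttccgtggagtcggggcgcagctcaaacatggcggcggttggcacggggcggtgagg
Srebf1, first window, chr11:60222552-60222831, minus strand: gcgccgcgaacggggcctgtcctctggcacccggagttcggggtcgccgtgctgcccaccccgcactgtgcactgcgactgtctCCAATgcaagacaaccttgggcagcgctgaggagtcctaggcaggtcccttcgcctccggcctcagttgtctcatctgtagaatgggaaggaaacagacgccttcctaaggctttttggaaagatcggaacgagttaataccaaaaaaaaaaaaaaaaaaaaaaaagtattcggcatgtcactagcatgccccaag
Srebf1, last window, chr11:60210442-60210721, minus strand: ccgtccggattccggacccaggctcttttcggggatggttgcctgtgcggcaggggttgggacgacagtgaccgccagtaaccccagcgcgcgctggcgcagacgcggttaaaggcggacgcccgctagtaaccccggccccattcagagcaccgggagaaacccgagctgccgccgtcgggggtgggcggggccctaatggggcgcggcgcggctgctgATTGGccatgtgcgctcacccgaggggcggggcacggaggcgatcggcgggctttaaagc
Mylip, chr13:45389492-45389771, plus strand: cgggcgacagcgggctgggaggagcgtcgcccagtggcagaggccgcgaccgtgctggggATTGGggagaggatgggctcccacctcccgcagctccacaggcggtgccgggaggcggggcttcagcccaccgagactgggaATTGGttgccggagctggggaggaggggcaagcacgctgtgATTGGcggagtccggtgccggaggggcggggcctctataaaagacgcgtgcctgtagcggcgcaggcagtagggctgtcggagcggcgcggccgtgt

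RefSeq gave 13 windows for the 8 genes, each searched on both strands over 250 bases before and 50 after the start. The 4 GATA forms searched were AGATAA with its variant AGATAG, and TGATAA with its variant TGATAG. Insig2 was the only member with a GATA form, in 2 of its 3 windows. The first window held AGATAA on the reverse strand, read as TTATCT from 2 bases before the start, and the second held TGATAA 226 bases before the start. At least 1 of the 4 GATA forms stood in 29.8% of all 32851 mouse windows of the same length. CCAAT stood in 6 of the 13 windows (5 members) and in 37.4% of all windows. GGGCGG, the letters of the factor Sp1, stood in 10 of the 13 windows (7 members) and in 35.7% of all windows. Of the sterol regulatory element, the form TCACNCCAC stood in no window of a member and in 1.24% of all windows, and a longer form with its middle left free in none and in 0.712%. The direct repeat of LXR, the hexamer AGGTCA repeated after 4 free bases, was in none of them either, and in 0.0152% of all windows. A match is a run of letters and not a shown binding site, and a missing match says nothing of a factor.

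Levels between genes were compared as CPM per kilobase of the longest coding transcript (GENCODE M21), since the transcript in use is not known. In Vector cells Srebf2 was highest, at 71.1 ± 1.64 CPM per kb (SD, n = 3). Srebf1 followed at 34.2 ± 0.670, Scap at 28.0 ± 0.898 and Mbtps1 at 20.1 ± 0.652 CPM per kb. Mbtps2 at 6.59 ± 0.306 and Insig2 at 6.00 ± 0.208 CPM per kb were the closest neighbours, and their libraries came near each other without overlapping. Mylip was far lower, at 0.450 ± 0.133 CPM per kb. The order changed at 2 places in the other groups. Insig2 stood at 14.9 to 15.3 CPM per kb in SREBP2, Vector+EST and SREBP2+EST cells and was there above Mbtps2, at 6.40 to 6.80. Mbtps1 stood at 24.9 to 26.6 CPM per kb in those groups and was there above Scap, at 21.3 to 23.6. Insig1 was at or under the floor throughout.

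**Figure D1:**
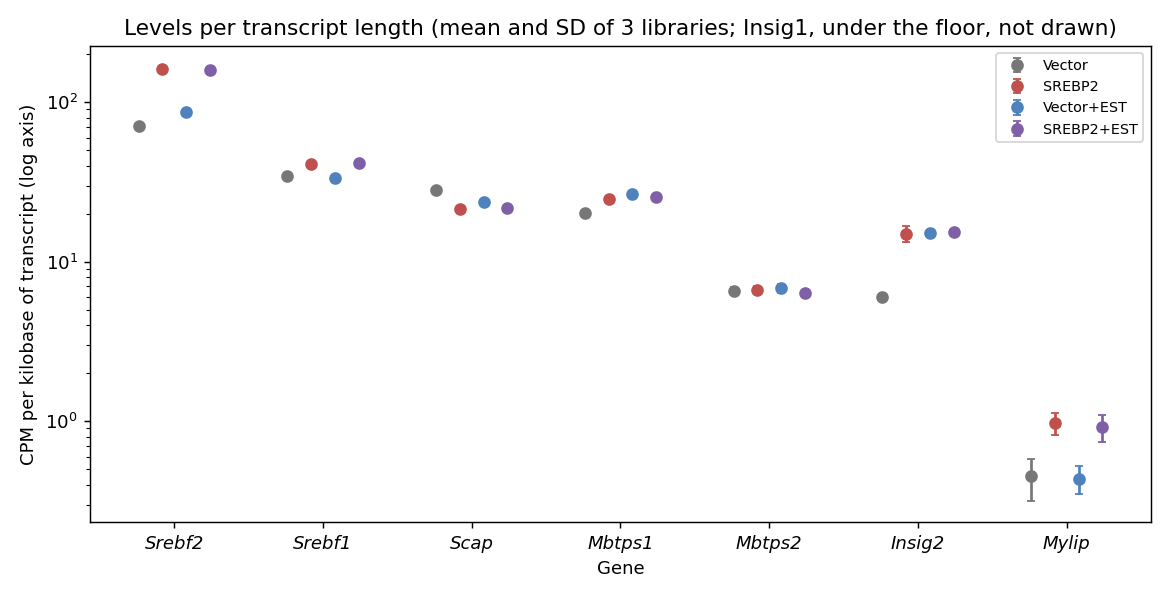
Level of each gene per transcript length, in CPM per kilobase on a log axis, as the mean of 3 libraries with its SD, for the 4 groups. Among the 7 genes drawn, without Insig1, Srebf2 stands highest in every group and Mylip lowest, and Insig2 stands lower in Vector cells (6.00 CPM per kb) than in the other groups (14.9 to 15.3).

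In Vector cells with EST, the retention gene Insig2 and the protease gene Mbtps1 rose, Srebf2 rose less, and Scap fell, while the values of Srebf1, Mbtps2 and Mylip did not pass the test. Of the 7 members tested, 3 were higher and 1 was lower, in a comparison where 70.6% of all 11177 genes tested passed, 35.2% higher and 35.5% lower. The libraries of the groups did not overlap for 75.7% of all genes. No difference from the share of all genes is read from so few members, and none was tested. In RNA of whole cultures, fewer cells with a transcript and less of it per cell cannot be told apart. Insig1 was left out of this and every test, because it did not pass the filter on low counts.

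Introduced SREBP2 without EST came with higher levels of Srebf2, Insig2, Mylip, Mbtps1 and Srebf1 and a lower level of Scap. Of the 7 members tested, 5 were higher and 1 was lower. In this comparison 71.5% of all genes passed, 37.7% higher and 33.8% lower, and libraries did not overlap for 74.8%. With EST in both groups, introduced SREBP2 left only 3 members past the threshold, Srebf2, Mylip and Srebf1, all higher, against 21.9% of all genes passing, 14.0% higher and 7.94% lower. Of all genes that passed, 63.7% were higher, and 42.2% when libraries were scaled by totals alone. Srebf2 is counted among the higher members in both SREBP2 comparisons, and its counts cannot separate the introduced fragment from the cell's own gene. The 3 Vector libraries are the controls of both the first comparison and the second, and Vector+EST stands in both the first and the last, so these effects are not independent of each other.

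**Figure D2:**
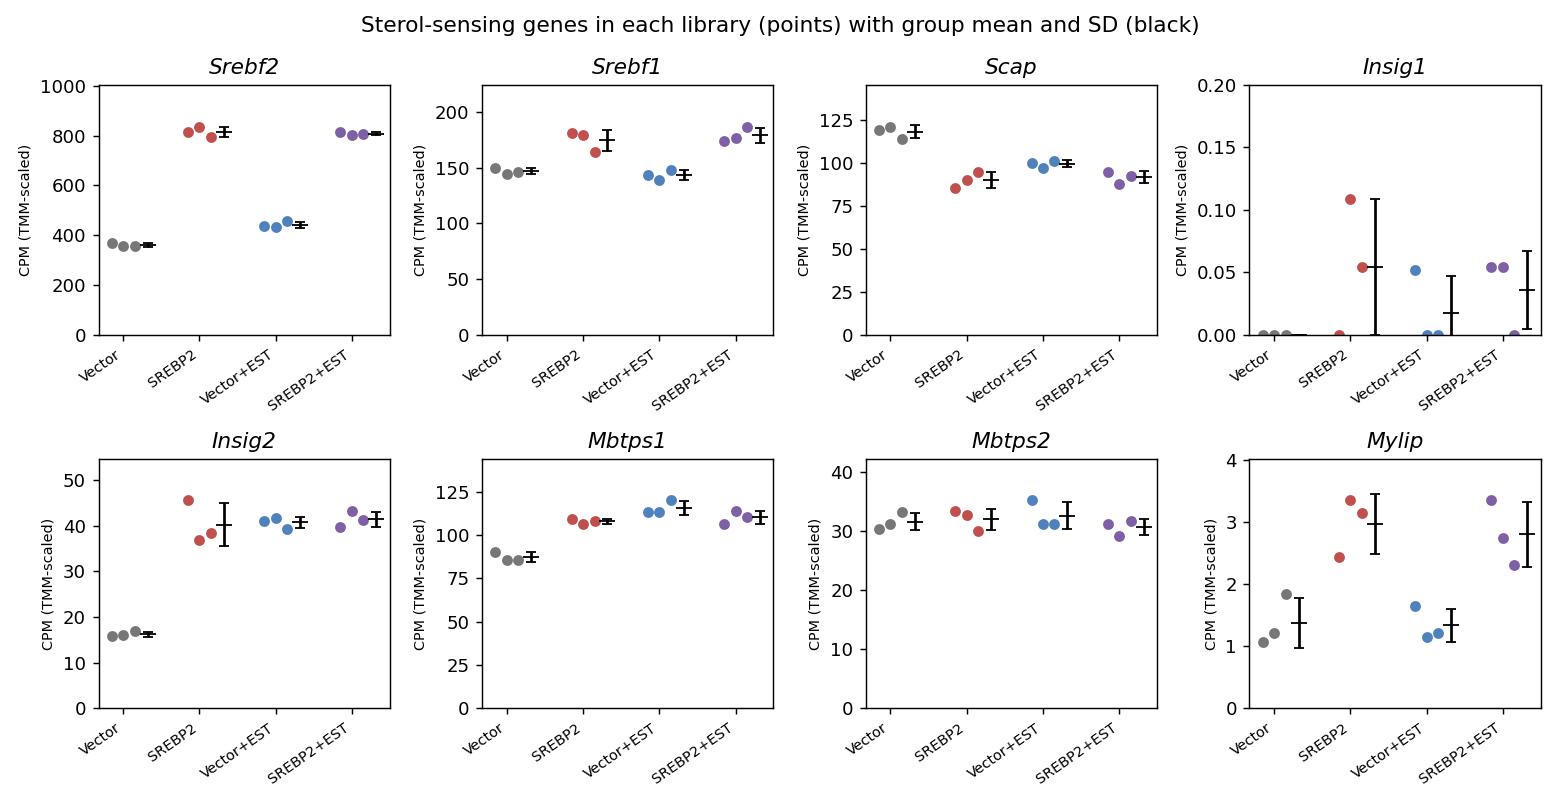
CPM of each sterol-sensing gene in each of the 12 libraries (points, 3 per group), with the group mean and SD in black, on axes that start at 0. Insig2 is low in Vector alone, Mylip is high in both groups with introduced SREBP2, and Insig1 lies under 0.11 CPM everywhere, at 2 counts or fewer.

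Srebf2 encodes SREBP2 itself (chromosome 15, 82147269 to 82205379). Its counts cannot separate transcripts of the cell's own gene from those of the introduced fragment. The study's methods call the fragment human in a lentiviral plasmid and give no species for the retroviral one. The supplement reports human SREBP2 mRNA in G1-ER4 cells transduced with a retrovirus that encodes the fragment. Reads of a human fragment would match the mouse gene only in part. The level of Srebf2 was 370.3, 357 and 355 CPM in the Vector libraries 1, 4 and 5. In Vector+EST it was 436, 432 and 456 CPM in libraries 1, 3 and 5. Every Vector+EST library lay above every Vector library, and the log2 fold change was 0.29 ± 0.03 (SE; adjusted p = 9.6e-07, edgeR). That is a difference of 80.6 ± 8.92 CPM. With introduced SREBP2 the level was 814, 837 and 797 CPM in libraries 1, 3 and 5 without EST, and 814, 801 and 808 CPM in libraries 1, 2 and 5 with EST. The 6 libraries lay far above both Vector groups, and they overlapped between the EST conditions. The SREBP2 effect was 1.18 ± 0.03 in log2 (2.26-fold; adjusted p = 3.69e-14) without EST and 0.87 ± 0.03 (1.83-fold; adjusted p = 5.76e-12) with EST. In CPM it was 455 ± 12.6 without and 366 ± 8.44 with EST. EST in SREBP2 cells shifted the level by -8.11 ± 12.2 CPM, within its error. The EST effect in log2 was lower in SREBP2 cells than in Vector cells by 0.31 (interaction -0.31 ± 0.05; adjusted p = 3.86e-05).

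Srebf1 encodes SREBP1, the family member best known for genes of fatty acid synthesis (chromosome 11, 60199084 to 60224186). It read 150.4, 145 and 146 CPM in Vector and 144, 139 and 148 CPM in Vector+EST. The Vector and Vector+EST libraries overlapped, with a log2 difference of -0.03 and a 95% interval from -0.13 to 0.06 (adjusted p = 0.516). In SREBP2 cells it read 181, 179.7 and 164 CPM, and in SREBP2+EST cells 175, 177 and 187 CPM. All 6 libraries with introduced SREBP2 lay above all 6 without it. The rise was small, at 1.19-fold without EST (log2 0.25 ± 0.05; adjusted p = 0.000106) and 1.25-fold with EST (log2 0.32 ± 0.05; adjusted p = 5.95e-05). The annotated end of Srebf1 overlaps that of Rai1, which had 2576 to 4239 counts, and the library is not stated to keep strand, so reads of the overlap could belong to either gene.

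Scap, the escort and sterol sensor (chromosome 9, 110333288 to 110384949), was the only member that fell. Its level was 119, 121 and 114 CPM in Vector and 100.3, 97.4 and 101 CPM in Vector+EST. It was 85.7, 90.4 and 94.6 CPM in SREBP2 and 95.0, 87.9 and 92.4 CPM in SREBP2+EST. The Vector libraries lay above the 9 others, and the Vector+EST libraries lay above both SREBP2 groups. EST in Vector cells lowered Scap 1.19-fold (log2 -0.25 ± 0.05; adjusted p = 0.000133), and SREBP2 without EST lowered it 1.31-fold (log2 -0.39 ± 0.05; adjusted p = 9.67e-07). With EST, the SREBP2 effect was -0.12 ± 0.05 in log2 and did not pass (adjusted p = 0.0761), though the libraries did not overlap, as was so for 38.1% of all genes. It passed without library 1 of SREBP2 (adjusted p = 0.0377), without both libraries 1 (-0.15; adjusted p = 0.011), and with library scaling by relative log expression (adjusted p = 0.0478) or by totals (adjusted p = 0.0107). The EST effect was higher in SREBP2 cells than in Vector cells by 0.27 ± 0.06 in log2 (interaction; adjusted p = 0.00184).

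Insig1 and Insig2 encode the paralogous proteins that retain SCAP in the endoplasmic reticulum. Almost no reads were assigned to Insig1, and Insig2 was measured in every library. Whether the RNA of Insig1 was absent or its reads were not assigned to the gene was not tested. Insig1 (chromosome 5, 28071412 to 28078662), known as a direct SREBP target in other tissues, had 0 counts in all 3 Vector libraries. It had 0, 2 and 1 counts in SREBP2, 1, 0 and 0 in Vector+EST, and 1, 1 and 0 in SREBP2+EST. Every library was under the floor of 3 counts, which corresponds to 0.153 to 0.163 CPM, and no fold was computed. The floor covers counting error only. A lncRNA, Gm35223, is annotated across Insig1, and it was not in the table.

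Insig2 (chromosome 1, 121304353 to 121332662) read 15.8, 15.9 and 16.8 CPM in Vector. Vector+EST libraries read 41.0, 41.7 and 39.4 CPM, SREBP2 libraries 45.5, 36.9 and 38.3 CPM, and SREBP2+EST libraries 39.8, 43.1 and 41.2 CPM. The Vector libraries lay far below the 9 others, and those 9 overlapped across groups. EST treatment of Vector cells raised Insig2 2.51-fold (log2 1.33 ± 0.08; adjusted p = 1.9e-10). SREBP2 without EST raised it 2.49-fold (log2 1.31 ± 0.08; adjusted p = 2.03e-10). The SREBP2 effect with EST was 0.02 in log2, with a 95% interval from -0.12 to 0.17 (adjusted p = 0.841), and the EST effect in SREBP2 cells was 0.04, with an interval from -0.11 to 0.19. The EST effects in the 2 kinds of cells differed by -1.29 ± 0.10 (interaction; adjusted p = 2.6e-08), the strongest interaction among the members. The highest SREBP2 library was number 1, and the SD in that group (4.65 CPM) was the largest of the 4.

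Mbtps1 and Mbtps2 encode the site-1 and site-2 proteases, and only the first passed a test. Mbtps1 (chromosome 8, 119508151 to 119558864) read 90.4, 85.6 and 85.3 CPM in Vector and 113, 113 and 120.0 CPM in Vector+EST. It read 109, 106 and 108 CPM in SREBP2 and 106, 114 and 111 CPM in SREBP2+EST. As with Insig2, the Vector libraries lay below the 9 others. EST in Vector cells raised Mbtps1 1.33-fold (log2 0.41 ± 0.04; adjusted p = 2.17e-07) and SREBP2 without EST raised it 1.24-fold (log2 0.31 ± 0.04; adjusted p = 5.74e-06). The SREBP2 effect with EST was -0.07 ± 0.04 in log2 (adjusted p = 0.261), and the interaction was -0.38 ± 0.06 (adjusted p = 4.24e-05). Mbtps2 (chromosome X, 157547822 to 157598715) ranged from 29.1 to 35.2 CPM over the 12 libraries. Its 4 groups overlapped, and its effects ran from -0.09 to 0.04 in log2 in the 4 main comparisons, with adjusted p from 0.375 to 0.925. The span of the small gene Yy2, with 118 to 205 counts, lies inside that of Mbtps2, and whether their exons overlap was not examined.

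Mylip encodes IDOL (chromosome 13, 45389742 to 45411940), and was the lowest of the members tested, with 20.7 to 61.8 counts per library. It read 1.08, 1.22 and 1.84 CPM in Vector and 1.65, 1.15 and 1.22 CPM in Vector+EST. It read 2.44, 3.36 and 3.15 CPM in SREBP2 and 3.36, 2.75 and 2.31 CPM in SREBP2+EST. All 6 libraries with introduced SREBP2 lay above all 6 without it, and the libraries with and without EST overlapped in both kinds of cells. The SREBP2 effect was 2.15-fold without EST (log2 1.10 ± 0.23; adjusted p = 0.000468) and 2.09-fold with EST (log2 1.06 ± 0.24; adjusted p = 0.0041). The low counts left the EST effect in Vector cells poorly determined, at -0.04 in log2 with a 95% interval from -0.60 to 0.52.

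**Figure D3:**
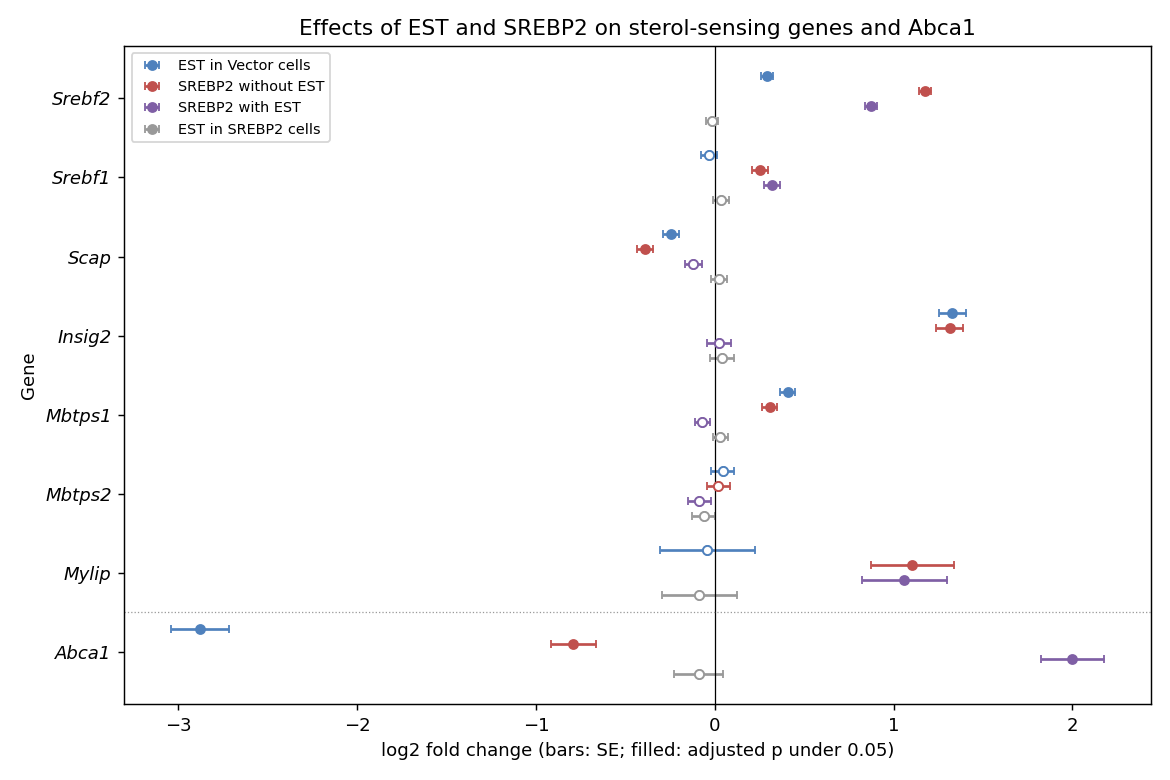
Log2 fold change with its SE for 7 sterol-sensing genes and, under the dotted line, Abca1. Filled points had an adjusted p under 0.05, and Insig1 had too few counts to be tested. In Insig2 and Mbtps1 the EST effect in Vector cells (1.33 and 0.41) and the SREBP2 effect without EST (1.31 and 0.31) stand to the right of 0, and the SREBP2 effect with EST stands near 0.

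EST in cells that already had introduced SREBP2 moved no member past the threshold. By edgeR no gene of 11177 passed (0% of all genes), 506 genes had an unadjusted p under 0.05, and DESeq2 called 12 genes, none of them a member. With 1 library left out, the 506 became 319 (without library 2 of SREBP2+EST) to 1868 (without library 1 of SREBP2). Libraries did not overlap for 7.43% of all genes, and overlapped for every member. The lowest unadjusted p among the members was 0.352, for Mbtps2. Without both libraries numbered 1, 1567 of 11292 genes passed, and still 0 members.

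The interaction passed for 4 of the 7 members tested, Scap higher and Srebf2, Insig2 and Mbtps1 lower, where 59.0% of all genes passed, 29.8% higher and 29.2% lower. Without both libraries numbered 1, that of Srebf1 passed as well (0.15 in log2; adjusted p = 0.0324). Set directly against Vector+EST, the SREBP2 group was higher in 3 members and lower in 1, in a comparison where 23.4% of all genes passed, 14.4% higher and 8.96% lower. Higher genes were 61.7% of those that passed, and 42.2% with scaling by totals alone. Srebf2 was 1.85-fold, Srebf1 1.22-fold and Mylip 2.21-fold higher in SREBP2 cells, and Scap was 1.10-fold lower (adjusted p = 0.0326). The call on Scap was lost when library 1 or 3 of SREBP2 or library 1 or 5 of Vector+EST was left out (adjusted p = 0.0813 to 0.0995), and when only these groups were fitted (adjusted p = 0.0562). Mbtps1 differed by -0.10 in log2, with libraries that did not overlap, as for 35.5% of all genes, but did not pass (adjusted p = 0.0934). It passed with scaling by totals (adjusted p = 0.0184) and without both libraries numbered 1 (adjusted p = 0.0363). Insig2 differed by -0.02 in log2 between these groups, with a 95% interval from -0.16 to 0.13. Set against Vector, the SREBP2+EST group was higher in 5 members and lower in 1, where 72.7% of all genes passed, 38.6% higher and 34.2% lower, and libraries did not overlap for 76.4%.

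Around the sensor, 7 lists of genes were described by their counts, and members were left out of them. The counts are read against the share of all genes that passed, which was 70.6% for EST in Vector cells, 71.5% for SREBP2 without EST and 21.9% for SREBP2 with EST. The median over all genes was 0.01, 0.03 and -0.0048 in log2. The COPII coat carries SCAP and SREBP out of the endoplasmic reticulum. Of its 9 genes tested (10 listed), EST in Vector cells raised 4 and lowered 3, SREBP2 without EST raised 2 and lowered 3, and SREBP2 with EST moved 0. That is 77.8%, 55.6% and 0% of the list, with medians of 0.05, 0.05 and -0.01 in log2. Sar1a, the GTPase that starts the coat, was at 51.9 ± 2.06 CPM in Vector, 38.7 ± 1.38 in Vector+EST and 40.6 ± 2.02 in SREBP2 (SD, n = 3), lower by 0.42 and 0.35 in log2 (adjusted p = 2.03e-06 and 1.3e-05). Sec23a, a coat subunit, fell by 0.35 and 0.33 in log2. Sar1b, of the same list, was higher, at 61.8 ± 1.49 CPM in Vector, 69.4 ± 3.77 in Vector+EST and 69.9 ± 2.37 in SREBP2. Scap fell with EST as Sar1a and Sec23a did, but 4 genes of the list rose, and 35.5% of all genes fell.

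The genes that mark or extract INSIG for degradation at the endoplasmic reticulum were 16. Of these, EST in Vector cells raised 7 and lowered 8, SREBP2 without EST raised 7 and lowered 5, and SREBP2 with EST raised 4 and lowered 0. The share that passed was 93.8%, 75.0% and 25.0%, the last 2 of these near those of all genes, and the medians were -0.11, -0.04 and 0.0033 in log2. Rnf145, a ligase of this route, rose most. It was at 122 ± 4.18 CPM in Vector, 328 ± 3.99 in Vector+EST and 352 ± 13.8 in SREBP2, a rise of 1.43 and 1.53 in log2 (adjusted p = 6.01e-13 and 1.91e-13). Erlin1, part of a complex in the endoplasmic reticulum membrane, fell by 0.90 and 0.82 in log2. Ubxn4 and Vcp, of the extraction machinery, fell with EST in Vector cells, by 0.74 and 0.21 in log2, and were higher with SREBP2 under EST, by 0.34 and 0.20. Without EST, SREBP2 lowered Ubxn4 by 0.40 in log2 (adjusted p = 1.78e-07), and Vcp differed by -0.03 (adjusted p = 0.408).

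The route of lipoprotein receptors through the cell held 16 genes, of which 14 were tested. Here EST in Vector cells raised 6 and lowered 2, SREBP2 without EST raised 4 and lowered 2, and SREBP2 with EST raised 1 and lowered 1. The share that passed was 57.1%, 42.9% and 14.3%, against 70.6%, 71.5% and 21.9% of all genes. This difference was not tested over the 14 genes. The list medians were 0.07, 0.06 and 0.02 in log2. The 1 lowered gene, the deubiquitinase Usp8, differed by -0.12 in log2 (adjusted p = 0.0451), and its call was lost in 9 of 12 fits that left out 1 library. Lrp8, a receptor of this family, was at 72.8 ± 1.78 CPM in Vector, 18.8 ± 0.815 in Vector+EST, 47.4 ± 3.85 in SREBP2 and 43.9 ± 6.76 in SREBP2+EST. Its SREBP2 effect changed sign between the conditions, from -0.62 ± 0.08 without EST to 1.22 ± 0.09 with EST (interaction 1.84 ± 0.12; adjusted p = 3.84e-09). Tsg101, of the endosomal sorting complex, rose 1.43 in log2 with EST and 1.41 with SREBP2 without EST (adjusted p = 5.56e-14 and 4e-14). Lrpap1, a chaperone of these receptors, was at 34.7 ± 1.36 CPM in Vector and 86.1 ± 3.84 CPM in SREBP2, a rise of 1.31 in log2 (adjusted p = 2.36e-12).

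Of the LXR receptors and targets outside the members, 5 of 10 were tested. Among them EST in Vector cells raised 2 and lowered 3 (median -0.86 in log2, against 0.01 over all genes), SREBP2 without EST raised 2 and lowered 3 (median -0.75 against 0.03), and SREBP2 with EST raised 2 and lowered 0. That is 100%, 100% and 40% of the 5 genes, against 70.6%, 71.5% and 21.9% of all genes. Abca1, the cholesterol exporter, read 9.59, 10.2 and 10.7 CPM in Vector and 1.80, 1.05 and 1.27 CPM in Vector+EST. It read 5.45, 6.12 and 6.07 CPM in SREBP2 and 6.50, 5.17 and 4.90 CPM in SREBP2+EST. The 4 groups fell into a high Vector group, a low Vector+EST group, and both SREBP2 groups between, which overlapped each other. EST lowered it 7.36-fold in Vector cells (log2 -2.88 ± 0.16; adjusted p = 1.47e-10), and the interaction was 2.79 ± 0.22 (adjusted p = 2e-08). Lpcat3, a phospholipid-remodelling enzyme, rose from 104 CPM in Vector to 444 CPM in SREBP2, with Vector+EST at 274 CPM, and Rxrb, a partner receptor of LXR, fell by 0.86 and 0.88 in log2. SREBP2 without EST lowered Abca1 1.73-fold (adjusted p = 2.98e-05).

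The other clients and partners of the site-1 and site-2 proteases held 10 genes, of which 8 were tested. In this list EST in Vector cells raised 5 and lowered 1, SREBP2 without EST raised 5 and lowered 2, and SREBP2 with EST moved 0. The share that passed was 75.0%, 87.5% and 0% of the 8 genes, against 70.6%, 71.5% and 21.9% of all genes. The list medians were 0.61, 0.48 and 0.02 in log2. Creb3, a membrane-bound transcription factor, was at 14.4 ± 1.24 CPM in Vector and 58.0 ± 2.15 in Vector+EST, 59.8 ± 5.23 in SREBP2 and 63.1 ± 4.12 in SREBP2+EST. The rise was 2.01 in log2 with EST and 2.06 with SREBP2 without EST (adjusted p = 2.4e-12 and 1.35e-12). Its relative Creb3l2 rose by 1.18 and 1.37 in log2, from 0.682 CPM in Vector.

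The nuclear partners of SREBP and the genes of its turnover were 20. The EST effect in Vector cells raised 11 and lowered 3, SREBP2 without EST raised 9 and lowered 3, and SREBP2 with EST raised 3 and lowered 2. The share that passed was 70.0%, 60.0% and 25.0%, near that of all genes in the first and last, and the medians were 0.15, 0.11 and 0.01 in log2. Lpin1, a phosphatidate phosphatase that restrains nuclear SREBP, stood out. It was at 39.2 ± 0.920 CPM in Vector, 159 ± 6.34 in Vector+EST, 386 ± 5.90 in SREBP2 and 386 ± 15.3 in SREBP2+EST, a rise of 2.01 with EST and 3.30 with SREBP2 in log2 (adjusted p = 4.13e-15 and 3.17e-17). Kpnb1, the importin that brings SREBP2 into the nucleus, fell from 869 ± 14.1 CPM in Vector to 426 ± 6.35 in Vector+EST and 423 ± 36.3 in SREBP2 (log2 -1.03 and -1.04). Usp28, a deubiquitinase, rose by 0.64 in log2 with SREBP2 without EST.

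The sterol-regulated targets of SREBP2 other than Insig1 were 16. SREBP2 raised 15 and lowered 1 without EST (median 1.50 in log2), and raised 15 and lowered 0 with EST (median 1.86), while EST in Vector cells raised 1 and lowered 13 (median -0.43). In that order the share that passed was 100%, 93.8% and 87.5%, against 71.5%, 21.9% and 70.6% of all genes. Lss rose by 2.50 and 2.55 in log2 without and with EST, and Pmvk by 2.49 and 2.67, both enzymes of cholesterol synthesis. Mvd, another enzyme of that pathway, rose by 2.67 in log2 with EST in both groups (adjusted p = 2.4e-15). Idi1 fell by 0.96 in log2 with EST in Vector cells. Insig1 is known as a target of the same kind, and it remained at 0 to 2 counts in the libraries where these genes were high.

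**Figure D4:**
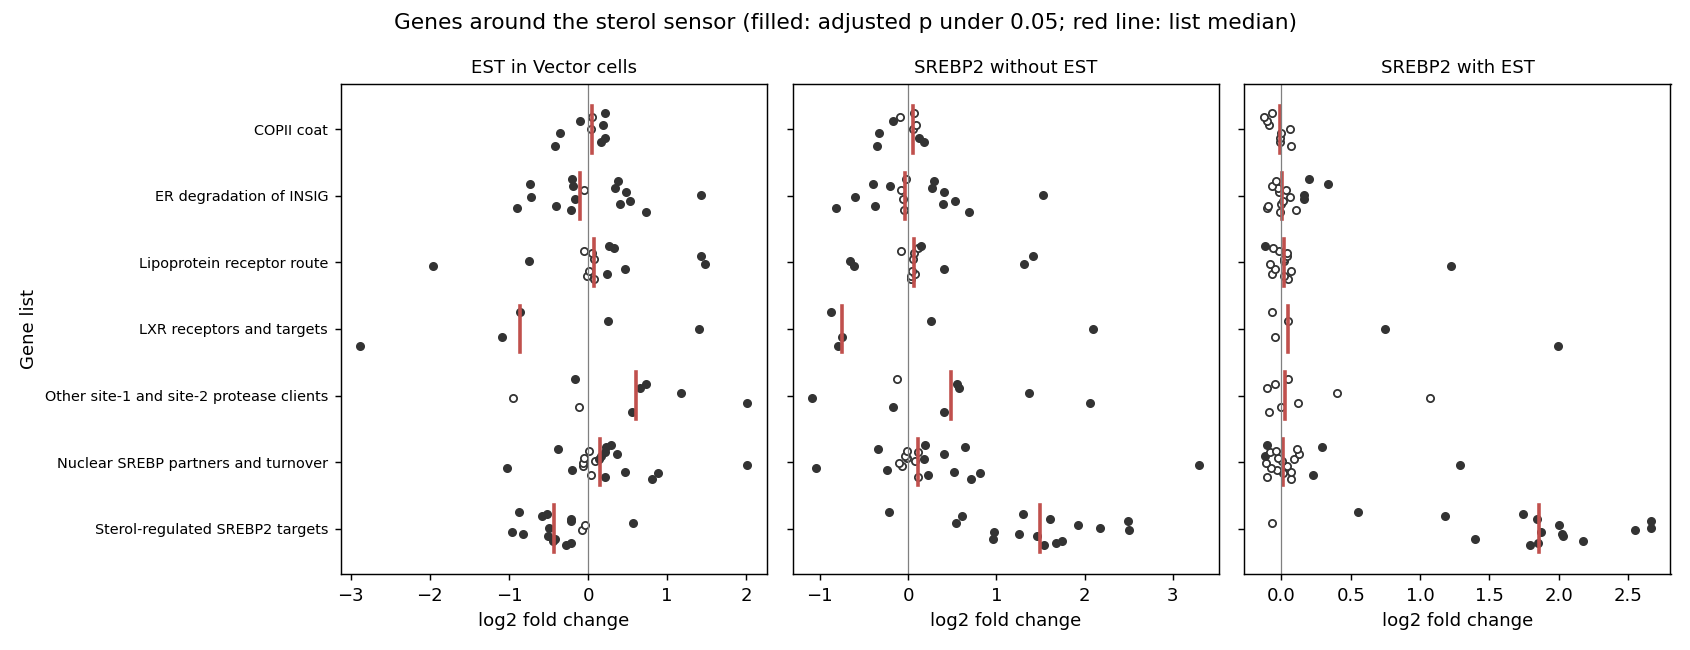
Log2 fold change of each tested gene in 7 lists around the sterol sensor, for EST in Vector cells, SREBP2 without EST and SREBP2 with EST. Filled points had an adjusted p under 0.05 and red lines are list medians. The SREBP2 targets lie to the right in both SREBP2 comparisons (medians 1.50 and 1.86) and to the left with EST (-0.43), and the protease clients and the COPII coat have no filled point in SREBP2 with EST.

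The genes whose pattern over the 12 libraries was most like that of each member were found by Pearson r of log2 CPM. The 12 libraries fall into 4 groups, so the points share their groups, and r is given as a description with no test. For Insig2 they were Rbm45 (r = 0.999), Cpne3 (0.998) and Zfp217 (0.998), and for Mbtps1 Dazap1 (0.990), Sp2 (0.986) and Map2k7 (0.985). For Srebf2 they included Msmo1 and Zfp280b (0.997 each), and for Srebf1 Ptpn23 (0.988), Dag1 (0.980) and Itsn1 (0.978). Msmo1 is an enzyme of cholesterol synthesis. The counts of Srebf2 cannot separate the introduced fragment from the cell's own gene. For Scap they were Dnaaf5 (0.988), Mrpl18 (0.983) and Zfp706 (0.983), and for Mylip Mfn1 (0.965), Dpp7 (0.946) and Itgb2 (0.946). Mbtps2, which passed no test, reached only 0.855 with Ccnt2, and 0.728 with Prkdc and 0.716 with Kmt2c.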

How the data were processed

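mRNA of 12 libraries (3 per group) was sequenced as single-end reads after oligo(dT) selection. The authors deposited estimated counts per gene for 17210 genes, not normalized, of which 66.5% of values are whole. The submitters' processing notes name HISAT2 2.0.4, Bowtie2 2.2.5, RSEM 1.2.12, DESeq2 1.4.5 and GRCm38.p6, without their roles. The authors' own comparison table (fold changes and p-values per transcript) was not used. The estimated counts were rounded, filtered with filterByExpr (11177 genes kept), scaled by TMM and tested in one fit of all 12 libraries with edgeR 4.0.16 (R 4.3.3; quasi-likelihood F-test). P-values were adjusted by Benjamini-Hochberg over the genes tested, with a threshold of 0.05. SEs were derived from the log2 fold change and its F value. Likeness was computed on log2 CPM (prior count 2) for genes averaging 3 or more on that scale. The procedure was tested on simulated data. Library totals were 18700959 to 19152281 counts. Groups came from the titles, and library numbers from the count table. Named genes are the 8 members, Abca1, from each list the genes of largest change past the threshold in each of 3 comparisons, and the 3 genes most like each member. Some genes that the rule or the lists held are not reported here, and the counts of the lists leave out those that the lists held. Members and lists were chosen with earlier results of these data known. The alternatives were DESeq2 1.42.0, 2 other scalings, 2 other filters, only the groups compared, libraries left out, and the library number as a block. Same-numbered libraries did not deviate together (0 of 13 pairs with r over 0.1), so the numbers were not taken as pairs. Their lowest r was -0.17, for library 1 of SREBP2 with library 1 of SREBP2+EST, which thus deviated in opposite directions. Library 1 of SREBP2 had r = 0.11 with library 2 of SREBP2+EST. Library 1 of SREBP2+EST had r = 0.13 with library 5 of SREBP2. What set these libraries apart was not tested.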

Additional observations from a re-analysis of the deposited data

Results flagged for a closer look

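The EST effect differed between SREBP2 cells and Vector cells for 4 members, by the interaction term of the edgeR fit. The difference, SREBP2 cells minus Vector cells in log2, was -0.31 for Srebf2, 0.27 for Scap, -1.29 for Insig2 and -0.38 for Mbtps1. In each of them the 3 Vector libraries stood apart from the 3 Vector+EST libraries, while the SREBP2 and SREBP2+EST libraries overlapped. Over all genes tested, 59.0% passed the same test. For Srebf2, transcripts of the introduced fragment and of the cell's own gene cannot be told apart.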

How the results depend on the processing

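No member past the threshold changed direction under any alternative. Of the members' results past the threshold, 209 kept their side and 3 lost it in the fits that left out no single library, as did 320 and 4 in those that left out 1 library. Among the list genes, SREBP2 with EST lost Usp28 with the replicate block (adjusted p = 0.054), and Usp8 with the block (0.179), without the low-count filter (0.0850), with at least 10 counts everywhere (0.0538) and in 9 of 12 fits without 1 library (up to 0.119). The members' counts with 1 library left out stayed at 4 for EST in Vector cells, 6 for SREBP2 without EST, 0 for EST in SREBP2 cells and 4 for the interaction, and ran from 3 to 4 for SREBP2 with EST and for SREBP2 against Vector+EST. Without both libraries numbered 1, 20 list genes passed for EST in SREBP2 cells (0 with all libraries), and SREBP2 with EST passed in 3472 genes. EST in SREBP2 cells, with 0 genes by edgeR, passed in 12 genes by DESeq2, 22 without the low-count filter, 8 with only the groups compared, 18 without library 5 of Vector+EST and 1567 without both libraries 1. With the library number as a replicate block, 7081, 7176, 1208, 0 and 5387 genes passed (EST in Vector cells, SREBP2 without EST, SREBP2 with EST, EST in SREBP2 cells, interaction), against 7893, 7987, 2448, 0 and 6591. The block took Mylip in SREBP2 with EST to 1.09 (adjusted p = 0.0514) and Scap in SREBP2 against Vector+EST to -0.14 (adjusted p = 0.0897). Values near 0 that never passed changed sign. They were Mbtps2 in SREBP2 without EST (-0.0076 by DESeq2 and by relative log expression, -0.038 by totals, -0.0099 with at least 10 counts everywhere, -0.051 without both libraries 1), Insig2 in SREBP2 with EST (-0.020 by totals, -0.027 with the block), Insig2 and Mbtps1 for EST in SREBP2 cells (-0.0086 and -0.0042 with the block), the interaction of Mylip (0.085 with the block) and Scap for EST in SREBP2 cells (-0.035 without both libraries 1). With 1 library left out, the values that changed sign, none of them past the threshold, ran over these ranges. For EST in SREBP2 cells they were -0.018 to 0.14 for Insig2, -0.23 to 0.033 for Mylip, -0.011 to 0.060 for Scap, -0.0074 to 0.062 for Srebf1 and -0.031 to 0.0044 for Srebf2. For Insig2 they were -0.11 to 0.043 in SREBP2 against Vector+EST and -0.0067 to 0.052 in SREBP2 with EST. For Mbtps2 they were -0.017 to 0.072 with EST in Vector cells, -0.054 to 0.035 in SREBP2 against Vector+EST and -0.029 to 0.063 in SREBP2 without EST. For Mylip they were -0.22 to 0.18 with EST in Vector cells and -0.27 to 0.13 for the interaction. The cause was not tested. The fit of only the groups compared has no value for the interaction, which needs all 4 groups. Low counts limit Mylip and leave Insig1 untested.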

Other observations

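The annotated protein-coding neighbours of Insig1 on chromosome 5 with the most reads were Paxip1, 279.74 kb before it, with 1446 to 2412 counts per library, and Rbm33, 238.174 kb after it, with 2784 to 3446 counts. The nearest neighbour in the table, En2, 87.034 kb after it, had 0 to 4.18 counts.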
